A study of Mus musculus with 3 samples.

Results

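The miR-29 family is encoded in the mouse by 4 hairpins, Mir29a, Mir29b-1, Mir29b-2 and Mir29c, and was followed through small RNA-seq of MIN6 cells. The members were found by hairpin sequence in the deposited alignments, and all 4 were among the 175 annotated hairpins, of 991 with an annotated mature miRNA, that could be placed there. MIN6 cells are an immortal line of mouse insulinoma origin, that is of a pancreatic tumor whose cells secrete insulin, and they serve as a model of the beta cell. The 3 libraries are replicates 1, 2 and 3 of cells grown in DMEM with serum and 25 mM glucose, prepared from total RNA with the TruSeq small RNA kit, and no untreated, treated or low-glucose group was analysed here. All comparisons are therefore between members, arms and 5′-starts within a library.

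A miRNA hairpin is cut first by Drosha and then by Dicer, which leaves a duplex of a 5p and a 3p strand with short overhangs. One strand is usually retained in Argonaute, and its bases 2 to 8, the seed, set most of its pairing with target mRNAs. The miR-29 family is best known for targeting mRNAs of collagens and other extracellular matrix proteins, and in beta cells it is also known for targeting the monocarboxylate transporter gene Slc16a1, which these cells normally keep silent, and mRNAs of the insulin pathway. A read that starts upstream or downstream of the annotated 5′-start has another seed and is called a 5′-shifted isomiR, and a 3′-end with bases that the genome does not encode is called a non-templated addition (NTA).

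The hairpins are shown with their annotated arms in capitals, because every cut described here lies in or beside these arms. The sequences are those of RefSeq for GRCm38.p6, and the coordinates are mm9, the build named in the submitters' processing notes, from the match of each sequence to the alignments. Mir29a lies at chr6:31012660-31012747 and Mir29b-1 at chr6:31013023-31013093, both on the minus strand and 275 bases apart. Mir29b-2 lies at chr1:196863234-196863314 and Mir29c at chr1:196863741-196863828, both on the plus strand and 426 bases apart.
Mir29a: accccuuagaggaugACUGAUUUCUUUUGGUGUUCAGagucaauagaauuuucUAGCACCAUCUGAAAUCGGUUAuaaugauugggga
Mir29b-1: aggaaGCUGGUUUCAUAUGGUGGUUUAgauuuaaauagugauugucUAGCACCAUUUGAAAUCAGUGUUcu
Mir29b-2: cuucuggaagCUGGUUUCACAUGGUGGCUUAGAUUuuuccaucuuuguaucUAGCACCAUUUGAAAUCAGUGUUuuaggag
Mir29c: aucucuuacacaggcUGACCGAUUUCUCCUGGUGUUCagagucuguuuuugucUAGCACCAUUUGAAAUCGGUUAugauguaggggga

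In the GENCODE annotation of GRCm38, which was used for names only, Mir29b-2 and Mir29c overlap exons of the noncoding gene A330023F24Rik on the same strand and exons of Cd46 on the opposite strand. Mir29b-1 overlaps an exon of the lincRNA Gm27019 on the same strand, and Mir29a overlaps no gene other than its own.

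The mature 3p strands are shown with the seed in capitals, because they share it and differ only downstream of it.
miR-29a-3p: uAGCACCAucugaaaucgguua
miR-29b-3p: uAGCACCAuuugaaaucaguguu
miR-29c-3p: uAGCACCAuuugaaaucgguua
Counted from 1 at the 5′-end, miR-29a-3p and miR-29c-3p differ by C10U alone. Within the first 22 bases, miR-29a-3p and miR-29b-3p differ by C10U, G18A, U21G and A22U. The copies of miR-29b-3p from Mir29b-1 and Mir29b-2 are identical. The seed AGCACCA occurred in 3 mature miRNAs of the RefSeq table, which were miR-29a-3p, miR-29b-3p and miR-29c-3p.

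Replicates 1, 2 and 3 held 9269795, 10816006 and 10218743 mapped reads of 14 to 41 nt. A form with 0 reads could still have had up to 3 reads, or 0.324 RPM (reads per 1000000 mapped reads) in the smallest library. All intervals given for shares are Wilson intervals at 95%, which take in counting error alone, since no molecular identifiers were used. As a check of the cell type, the most abundant 5′-start of Mir375, the hairpin of the islet-enriched miR-375, had 354247 ± 18597 RPM (SD, n = 3), and miR-7a-5p, also enriched in islets, had 434.9 ± 44.9 RPM. Of 8 markers of other lineages, 1 had a placed hairpin, miR-126a-3p of endothelium, at 26.0 ± 2.11 RPM. The levels of the others were not measured here, because a hairpin that was not placed need not be without reads. The study names the libraries biological replicates, but the labels do not say whether they came from separate cultures, so the spread between them may be partly technical. The exact two-sided sign-flip permutation test over 3 libraries, used for all differences between members below, cannot give a p below 0.25, which is 0.275 after Benjamini-Hochberg adjustment over the 11 differences tested. A difference is therefore described by its size, its SD and the number of libraries with its direction. Sizes are ratios or shares of reads, and how evenly the library preparation captured strands of different sequence was not tested. An uneven capture would repeat in every library and would not show in the SD.

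Most miR-29 reads in MIN6 came from miR-29a-3p. The 4 hairpins together had 1975, 1769 and 1762 RPM in replicates 1, 2 and 3, or 0.276%, 0.246% and 0.245% of the reads in all placed hairpins, Mir375 included. At its 5′-reference start, miR-29a-3p had 13226, 13798 and 12764 reads, equal to 1427, 1276 and 1249 RPM. miR-29c-3p, with the same seed, had 2060, 2200 and 2219 reads, equal to 222.3, 203.4 and 217.1 RPM. miR-29b-3p, summed over its identical copies, had 629.7, 682.7 and 621.3 reads, equal to 67.9, 63.1 and 60.8 RPM. The libraries of each member lay close together, and no library of one member overlapped those of another.

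Of the reads at these 3 starts, miR-29a-3p held 82.5% ± 0.667 (SD, n = 3), miR-29c-3p 13.5% ± 0.675 and miR-29b-3p 4.01% ± 0.0724. The ratio of miR-29a-3p to miR-29c-3p was 6.42, 6.27 and 5.75 in replicates 1, 2 and 3, a log2 ratio of 2.62 ± 0.08 (SD). The log2 ratio of miR-29a-3p to miR-29b-3p was 4.39, 4.34 and 4.36, a mean of 4.36 ± 0.03, or 20.6-fold. miR-29b-3p was 3.27-, 3.22- and 3.57-fold below miR-29c-3p, a log2 ratio of -1.74 ± 0.08. Each of these orders held in 3 of 3 libraries, and each gave p = 0.25 in the exact permutation test, the smallest it allows.

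**Figure D1:**
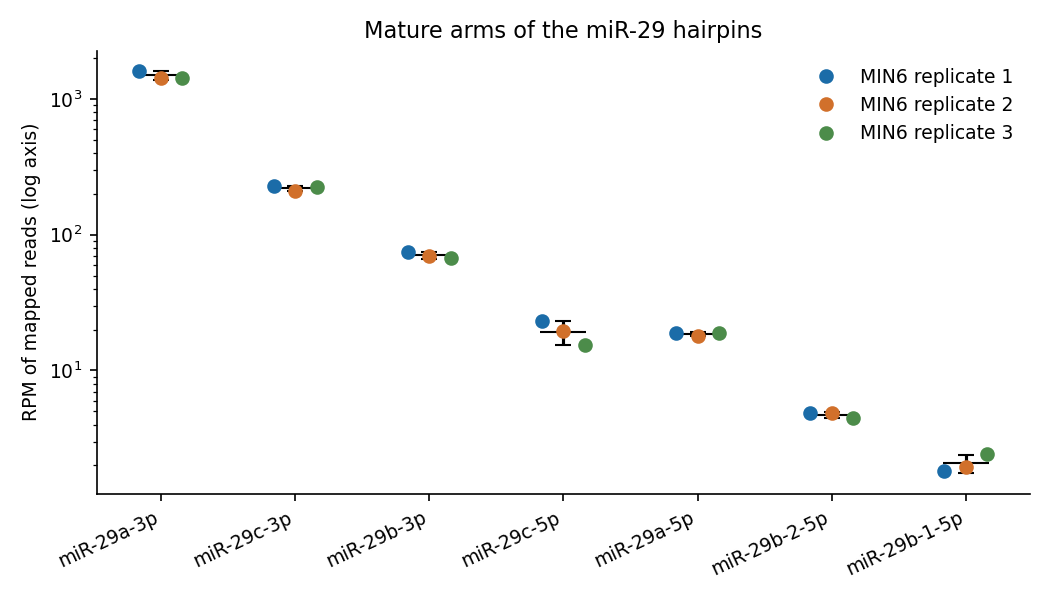
RPM of mapped reads (log axis) for the 7 mature arms of the miR-29 hairpins, each summed over all its 5′-starts, with a point per MIN6 library and the mean ± SD in black. miR-29a-3p sits highest at 1415 to 1607 RPM, and the 5p arms of Mir29a and Mir29c overlap near 19 RPM.

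In the order of 310 annotated arms of placed hairpins by mean RPM, of which 275 had at least 10 reads in every library, miR-29a-3p with all its starts ranked 32 at 1486 ± 105 RPM (SD, n = 3). It stood between miR-411-5p at 1875 ± 118 RPM, whose libraries did not overlap with it, and miR-21a-5p at 1460 ± 75.1 RPM, whose libraries did. miR-29c-3p ranked 94 at 219.8 ± 10.4 RPM, between miR-129-2-3p at 228.6 ± 24.3 RPM and miR-879-5p at 219.3 ± 10.9 RPM. miR-29b-3p ranked 152 at 70.4 ± 3.72 RPM, between miR-15b-3p at 71.1 ± 9.80 RPM and miR-23a-3p at 70.3 ± 3.40 RPM. The ranges of both neighbours overlapped those of miR-29c-3p and of miR-29b-3p. Strands that the RefSeq table does not list, among them the main strand of Mir375, are not in this order. The 5p arms of Mir29c and Mir29a ranked 210 and 216, and miR-29b-2-5p and miR-29b-1-5p ranked 247 and 269.

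The 5p arms did not follow the 3p arms. All starts of the miR-29a-5p arm summed to 176, 193 and 192 reads, equal to 19.0, 17.8 and 18.8 RPM. All starts of the miR-29c-5p arm summed to 214, 209.8 and 156.3 reads, equal to 23.1, 19.4 and 15.3 RPM. The libraries of the 5p arms overlapped, with miR-29c-5p above miR-29a-5p in replicates 1 and 2 and below it in replicate 3. Their log2 ratio was 0.03 ± 0.30 (SD, n = 3), with p = 1 in the exact permutation test, and its values ran from -0.30 to 0.28. The 3p arms of the same hairpins, also summed over all starts, had a log2 ratio of Mir29a to Mir29c of 2.76.

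The share of the 5p strand therefore differed between the hairpins. The 3p arm of Mir29a had 84.6, 80.5 and 75.3 reads for each read of its 5p arm, a log2 ratio of 6.32 ± 0.08. The 3p arm of Mir29c had 9.87, 10.7 and 14.6 reads for each 5p read, a log2 ratio of 3.53 ± 0.30. The ratios of both hairpins were apart in every library, and the 3p arm led in 3 of 3 libraries for each. Among 122 placed hairpins whose annotated arms each have 1 placed locus, with at least 100 reads in every library, the less abundant arm held a median of 2.36% of the reads of both arms. It held 1.23% in Mir29a, which ranked 72 from the highest, and 8.03% in Mir29c, which ranked 40.

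Reads of the 5p arms told the copies of miR-29b apart. miR-29b-1-5p had 17, 21 and 25 reads, equal to 1.83, 1.94 and 2.45 RPM, and miR-29b-2-5p had 45, 53 and 45.5 reads, equal to 4.85, 4.90 and 4.45 RPM. The Mir29b-2 arm was higher in every library by 2.65-, 2.52- and 1.82-fold, a log2 ratio of Mir29b-1 to Mir29b-2 of -1.20 ± 0.29 (SD, n = 3). This fold compares 5p reads alone and does not measure the difference between the whole hairpins. Reads from the loop had the other order, with 43, 34 and 29.5 at position 30 of Mir29b-1. Positions 34 and 39 of Mir29b-2 had at most 1 read per library. On the 3p side, a read that extends past the shared 23 bases can also show its copy. Such reads without a mismatch numbered 5, 7 and 5 for Mir29b-2, whose base 24 is U, and 0, 1 and 0 for Mir29b-1, whose base 24 is C. Their number is at the limit of the depth, and a non-templated U after base 23 has the same letters as the Mir29b-2 extension.

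Within each cluster the 5p arm of Mir29a or Mir29c was above the 5p arm of the miR-29b hairpin. The 5p arms were compared because reads of miR-29b-3p cannot be divided between its copies. Since the share of the 5p strand differed between hairpins, these folds do not measure the difference between whole hairpins. Between 5p arms, Mir29a was 10.4-, 9.19- and 7.68-fold above Mir29b-1 on chr6, a log2 ratio of 3.17 ± 0.22 (SD, n = 3). Mir29c was 4.76-, 3.96- and 3.43-fold above Mir29b-2 on chr1, a log2 ratio of 2.00 ± 0.24. Both orders held in 3 of 3 libraries, and the libraries of the compared arms did not overlap. Small RNA reads measure what remains after processing and decay and enters the library. Unequal transcription, unequal processing and unequal capture within a cluster therefore cannot be told apart here.

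The start of the 3p strand was more uniform in miR-29c-3p than in miR-29a-3p. A start 1 base upstream gives miR-29a-3p-1, shown with its seed in capitals because the shift changes it.
miR-29a-3p-1: cUAGCACCaucugaaaucgguua
miR-29a-3p-1 had 1570, 1643 and 1583 reads, equal to 169.3, 151.9 and 154.9 RPM, and lay below miR-29c-3p in every library. It made up 10.5% (95% interval 10.1 to 11.0), 10.6% (10.1 to 11.1) and 10.9% (10.4 to 11.5) of the reads of the arm, and the 3 intervals overlapped. Its seed UAGCACC occurred in 0 mature miRNAs of the RefSeq table.

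The same shift was found in 50, 62 and 57 reads of miR-29b-3p, 7.93% ± 0.598 (SD, n = 3) of that arm, and in 11.5, 14 and 9.5 reads of miR-29c-3p, 0.527% ± 0.104. The share was 9.99, 9.96 and 10.5 percentage points higher in miR-29a-3p than in miR-29c-3p, a mean of 10.2 ± 0.318 (SD), with the same direction in 3 of 3 libraries. The base before the 3p start is C in all 4 hairpins. Reads of the identical copies are divided evenly, so the share of each miR-29b hairpin is not known. Over 123 arms with at least 1000 reads in every library, the median share of this shift was 0.101%, the share of miR-29a-3p ranked 7 from the highest and that of miR-29c-3p ranked 35.

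**Figure D2:**
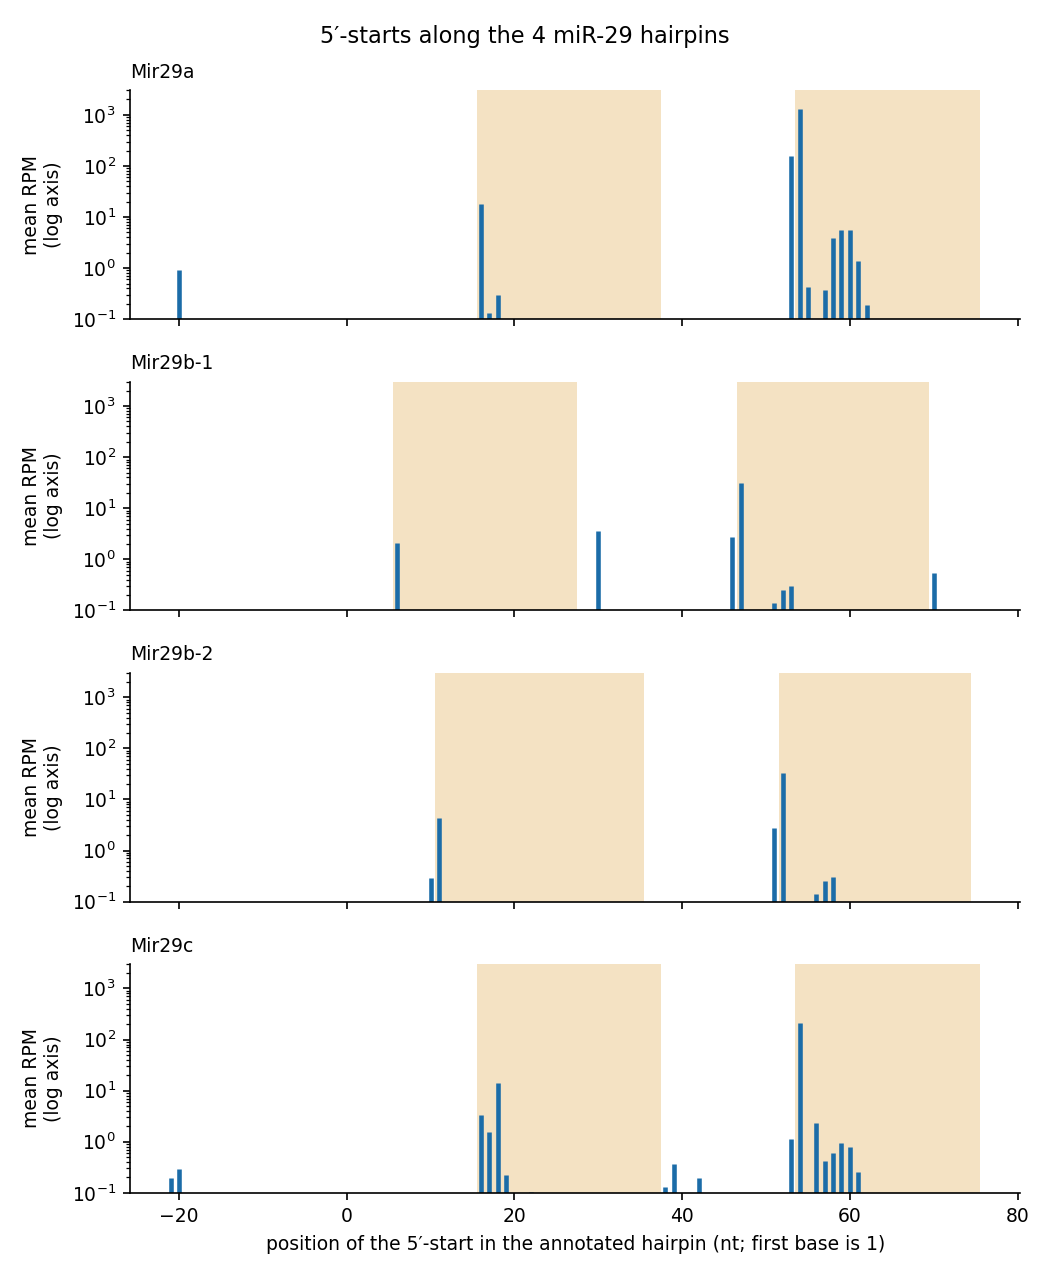
Mean RPM over the 3 libraries (log axis) of every 5′-start with at least 0.1 RPM along the 4 hairpins, by position in the hairpin in nt, with the annotated mature arms shaded. Bars 1 base before the 3p arm are tall in Mir29a and short in Mir29c, the tallest 5p bar of Mir29c stands 2 bases inside the annotated arm, and Mir29b-1 has a bar of 3.56 RPM at position 30 in its loop.

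On the 5p side the annotated start of miR-29c-5p was not its main start. It held 43, 33.75 and 23.25 reads, 17.02% ± 2.73 (SD, n = 3) of the arm. A start 2 bases downstream, miR-29c-5p+2, held 148, 156 and 121 reads, or 69.2%, 74.4% and 77.4% of the arm, and was higher than the annotated start in every library. The start in between held 21, 16 and 10 reads. miR-29c-5p+2 is shown beside both annotated strands because it begins at the base that aligns with the start of miR-29a-5p.
miR-29c-5p: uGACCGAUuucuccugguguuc
miR-29c-5p+2: aCCGAUUUcuccugguguucaga
miR-29a-5p: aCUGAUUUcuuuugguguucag
In its first 22 bases miR-29c-5p+2 differs from miR-29a-5p by U3C, U11C and U12C. Its seed CCGAUUU occurred in 0 mature miRNAs of the table, and the annotated seed GACCGAU in miR-29c-5p only. miR-29a-5p began at its annotated start in 97.7% ± 0.685 of its reads, and miR-29b-1-5p and miR-29b-2-5p did so in 98.4% ± 2.75 and 93.2% ± 2.50.

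A few further starts passed 10 reads in every library. Reads of mostly 15 to 18 nt began at positions 58 to 61 of Mir29a, inside its 3p arm, with 11.5 to 67.1 reads per start and library. Reads from position 56 of Mir29c, 2 bases inside miR-29c-3p, numbered 23, 21 and 27, with 22 nt as the most frequent length. Of these, 20, 21 and 27 ended in a base that mismatches the genome, so this start rests almost wholly on mismatched reads. A start in the loop of Mir29b-1 is described below.

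The members also differed in their 3′-ends. miR-29a-3p had 43.0% ± 0.698 (SD, n = 3) of its reads at 21 nt, 37.1% ± 0.146 at 22 nt and 12.1% ± 0.492 at 20 nt. miR-29c-3p, 1 base apart from it, had most reads at 22 nt, 44.1% ± 0.200, and 29.6% ± 0.698 at 21 nt. miR-29b-3p had 86.6% ± 1.29 of its reads at 23 nt. The most frequent length was the same in all 3 libraries for each of them. The mean length was 21.39 ± 0.0044 nt for miR-29a-3p, 21.72 ± 0.0329 nt for miR-29c-3p and 22.85 ± 0.0548 nt for miR-29b-3p.

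miR-29a-3p-1 ended mostly where its reference form did. Its most frequent length was 22 nt, with 55.1% ± 1.93 of its reads, which ends at the same base as the 21-nt reads of miR-29a-3p. Its mean length was 22.32 ± 0.0259 nt.

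The 5p strands had 3′-ends of their own. miR-29a-5p had 22.2% ± 3.67 of its reads at 22 nt, 31.9% ± 2.51 at 23 nt and 29.3% ± 2.08 at 25 nt but 8.34% ± 1.87 at 24 nt. Of its 23-nt reads 50.9% were exact and 47.4% ended in a mismatching U. Among exact reads 22 nt, with 43, 39 and 35 reads, was above 23 nt, with 31, 29 and 29, in every library. miR-29c-5p+2 was sharper, with 77.4% ± 0.452 at 23 nt. Both miR-29b 5p strands were mostly 24 nt, with 58.3% ± 11.9 of miR-29b-1-5p, annotated as 22 nt, and 55.3% ± 3.31 of miR-29b-2-5p, annotated as 25 nt. Reads of 25 nt were 4.51% ± 0.297 of miR-29b-2-5p, and these strands have few reads, so the SD is wide for miR-29b-1-5p.

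**Figure D3:**
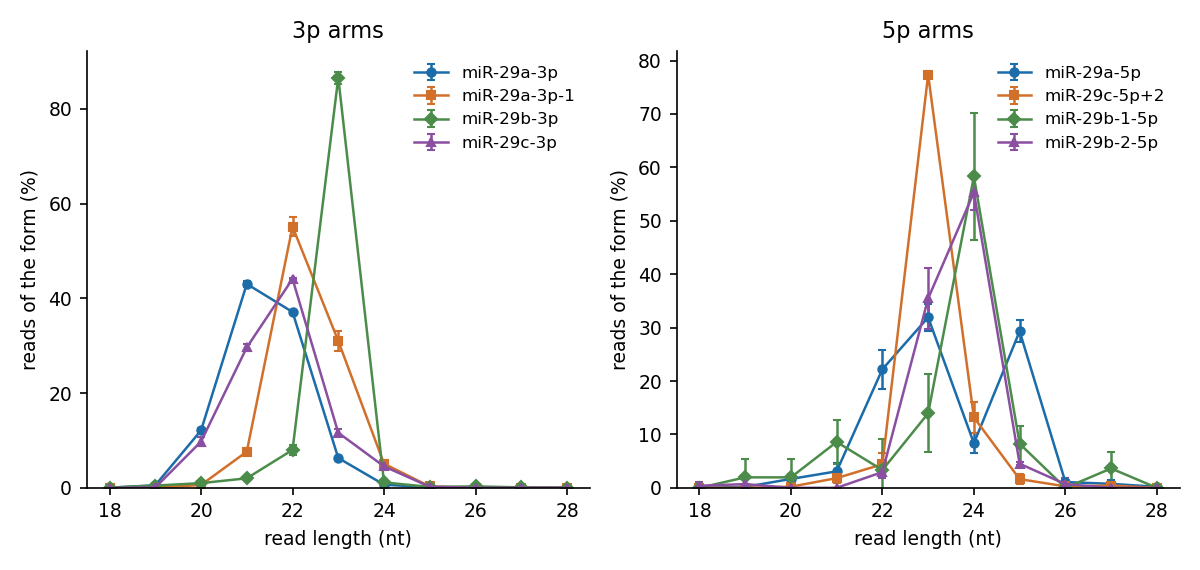
Read length in nt against the percentage of the reads of each form, for the main forms of the 3p arms (left) and the 5p arms (right), as mean ± SD over 3 MIN6 libraries. miR-29b-3p peaks at 23 nt with 86.6%, miR-29a-3p at 21 nt and miR-29c-3p at 22 nt, and miR-29a-5p is high at 23 and 25 nt and low at 24 nt, where 50.9% of the 23-nt reads are exact.

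The last base of a read mismatched the genome more often in miR-29c-3p than in miR-29a-3p. This is the measure of NTAs used here, and an added base that equals the encoded one is not counted by it. In miR-29a-3p the share was 6.71% (95% interval 6.30 to 7.15), 7.19% (6.77 to 7.63) and 6.74% (6.32 to 7.19). In miR-29c-3p it was 13.9% (12.5 to 15.5), 13.2% (11.9 to 14.7) and 14.02% (12.6 to 15.5), and no interval overlapped those of miR-29a-3p. The difference was -6.84 ± 0.691 percentage points (SD, n = 3) in the same direction in 3 of 3 libraries. Its size rested largely on reads of miR-29c-3p with C in place of the encoded U at base 23 (U23C), which made up 43.2% of its mismatching ends over the libraries. Without the reads with a mismatching C at base 23, a setting chosen after seeing the data, the difference was -2.36, -1.82 and -1.47 percentage points, a mean of -1.88 ± 0.445. Whether these bases were added or the MIN6 genome differs from the reference there was not tested. The share in miR-29b-3p was 2.54%, 1.46% and 1.72%. Over the 123 arms with at least 1000 reads the median was 7.89%, and miR-29c-3p ranked 43 and miR-29a-3p 67 from the highest. The part of sequencing errors in these shares was not tested.

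The mismatching bases differed between the forms, but so do the encoded bases that hide an equal addition. The base after the annotated strand is A in miR-29a-5p and U in miR-29a-3p and miR-29c-3p. The shares of the bases are therefore not directly comparable between forms. In miR-29a-3p, 41.2% of them were U, 23.9% A, 22.6% G and 12.3% C over the 3 libraries. In miR-29c-3p, 32.5% were U, 29.9% C, 28.2% A and 9.38% G. In miR-29a-3p-1, 72.3% were U. In the 5p strands of Mir29a and Mir29c nearly all were U. A mismatching last base was found in 16.4%, 16.8% and 25.1% of the miR-29a-5p reads, and 96.3% of these bases were U. It was found in 26.4%, 32.7% and 37.2% of the miR-29c-5p+2 reads, and 91.9% of these bases were U. The miR-29b 5p strands had 0 to 5 such reads per library, of which 62.5% were C in miR-29b-1-5p and 71.4% were U in miR-29b-2-5p. In every library the shares of miR-29a-5p and miR-29c-5p+2 were above those of miR-29a-3p and miR-29c-3p. The 95% intervals of miR-29a-5p in replicates 1 and 2, 11.6 to 22.6 and 12.2 to 22.8, nevertheless overlapped those of miR-29c-3p.

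**Figure D4:**
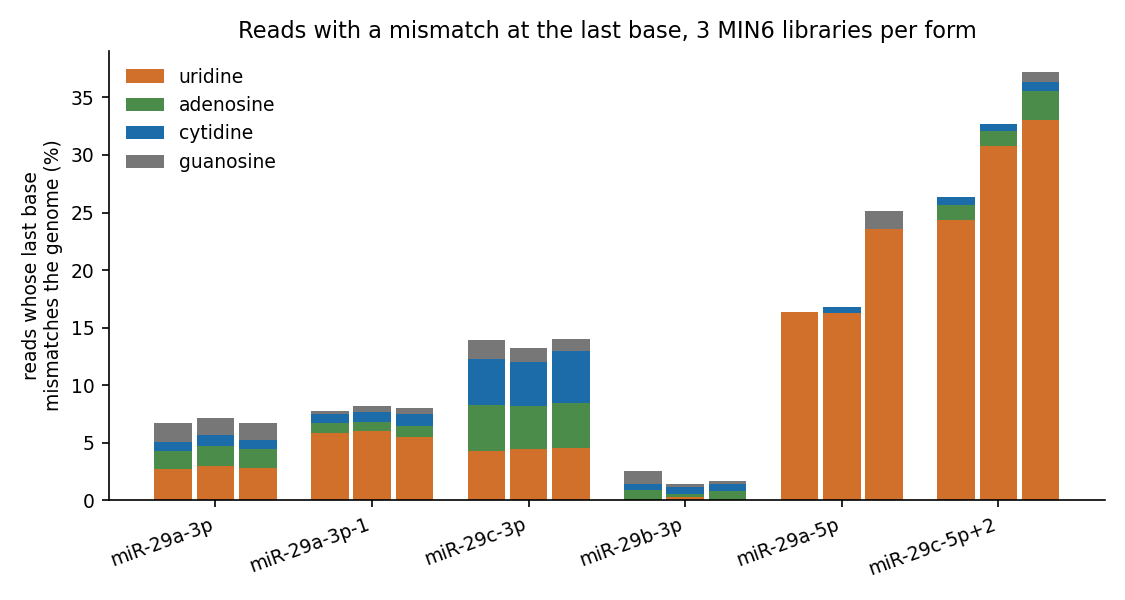
Percentage of reads whose last base mismatches the genome, stacked by the base read, in 6 forms of the family with 1 bar for each of MIN6 replicates 1, 2 and 3 from left to right. Uridine fills most of the bars of miR-29a-5p and miR-29c-5p+2, whereas miR-29c-3p, at 13.2% to 14.02%, is split among uridine, cytidine and adenosine.

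A particular ending occurred in miR-29c-3p. Of the 95, 91.5 and 107 reads of 24 nt at its reference start, 48, 51 and 69 ended in CU in place of the encoded UG. This ending, U23C with G24U, made up 57.2% over the libraries. Reads of this length and start without any mismatch numbered 1, 1 and 1. The reads that start 2 bases further inside and end at the same base carried CU in 15 of 21, 12 of 19 and 16 of 24 reads. Reads of 36 to 40 nt that ran from the loop through the whole 3p strand to the same base numbered 6, 8 and 8, and 2, 3 and 6 of these ended in CU. In miR-29a-3p, whose 24-nt reads numbered 81, 100.5 and 84, the ending CU was found in 4, 0 and 3. The ending was therefore found on reads that extend across the 3p start as well as on the mature strand, and the question of an addition or a difference in the MIN6 genome, which was not tested, applies to it too.

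Mismatches inside the reads were also examined. The most frequent one in miR-29a-3p-1 was A6C in 10.7%, 10.8% and 10.4% of its reads, at the sixth base of the read. At the reference starts of 27 other arms with A at base 6 and at least 1000 reads in every library, A6C ranged from 6.32% to 12.3%, with a median of 9.02%, and miR-29a-3p-1 lay inside that range. C7A, the most frequent one in miR-29a-3p at 1.66% ± 0.117 (SD, n = 3) and in miR-29c-3p at 1.02% ± 0.354, ranged from 0.106% to 2.15% in 24 other arms with C at base 7. A9C, in 2.78% ± 0.270 of the miR-29a-3p-1 reads, ranged from 1.38% to 3.78% in 21 other arms. All of these lay inside the range of arms that share the base and its place in the read. In miR-29c-3p, U10C, which gives the base that miR-29a-3p has there, was found in 0.954% ± 0.187 of the reads, against a median of 0.0270% and a range of 0% to 14.2% in 24 other arms. Of these 23.5, 21 and 17 reads, 22.5, 21 and 16 had another mismatch.

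Pieces outside the mature strands were found at low numbers. The loop of Mir29b-1 gave reads of 17 nt, shown because they fill the gap between its arms.
loop piece of Mir29b-1: UUUAAAUAGUGAUUGUC
It lies at chr6:31013048-31013064, begins at position 30 of the hairpin, just after the end of the 24-nt miR-29b-1-5p reads, and ends at position 46, just before the 3p start. It had 43, 34 and 29.5 reads, against 17, 21 and 25 reads of the miR-29b-1-5p arm in the same libraries, and 43, 33 and 29 of them had 17 nt. Mir29b-1 also had 3, 11 and 3 reads that begin at position 70, the base after the 23-nt 3p strand. Mir29a had 5, 12 and 11 reads of 36 nt that end at position 15, the base before miR-29a-5p, and 1, 1 and 4 reads of 38 nt that run from the start of miR-29a-5p to the base before miR-29a-3p. Each of the pieces listed is described by where at least 1 of its ends met an end of a mature strand. This is therefore not a test of whether pieces in general do so. Reads also began outside the arms elsewhere, as at position -20 of Mir29c with 1, 4 and 4 reads. The ends of those reads were not examined.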

How the data were processed

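Small RNA of 3 MIN6 libraries was sequenced. For each distinct alignment of 3′-adaptor trimmed reads the authors deposited an expected count, and a read that fitted several loci equally well was divided among them. The submitters' processing notes name cutadapt, Bowtie and mm9. In the study's methods mismatched reads were only aligned near exactly matching reads, so a strand without an exact read nearby would not be counted. The counts are not scaled by depth, which was 9269795 to 10816006 mapped reads.

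Alignments marked as exact end 1 base early, which was corrected. Hairpins of RefSeq (GRCm38.p6) were placed on mm9 by the bases that mismatches exclude, seeded by starts with at least 15 reads, at a threshold of 20 bits. The family had 28.8 to 66.6 bits, reversed sequences gave 0 placements, and on simulated data 100 of 100 planted hairpins were placed correctly. The simulated hairpins were unrelated random sequences, so the placement of related members was not tested by them. Their errors were spread evenly over the read, unlike the mismatches seen here, and their depth was not matched to that of the family. An arm comprises starts within 5 bases of the annotated one. RPM are per 1000000 mapped reads. Named are all 4 hairpins, every start with at least 10 reads in each library, and the arms next in RPM order, and pieces and endings described at lower counts were chosen after their values were seen. The members and lists were chosen with earlier results of these data known. Differences were tested by an exact two-sided sign-flip permutation over libraries. The alternatives were exact alignments, reads of 18 to 25 nt, all starts, whole-number counts, another denominator, a wider NTA definition and leaving out each library. The tests between 5p arms and of the 5′-shifted share, other than miR-29b-1-5p against miR-29b-2-5p, were added after seeing the data, and so was the NTA comparison without reads with C at base 23. Python 3.11.15, numpy, pandas and matplotlib were used.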

Additional observations from a re-analysis of the deposited data

Results flagged for a closer look

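The 17-nt loop piece of Mir29b-1 lies outside both mature arms, the reads that the comparisons of members rest on, and had 3.56 ± 0.946 RPM (SD, n = 3), above the 0.277 to 0.324 RPM that a count of 0 allows in these libraries. It was present in 3 of 3 libraries.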

How the results depend on the processing

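No paired analysis was possible because the libraries share a single condition and form no groups to pair, and members were compared within each library instead. Leaving out a library cannot reverse a difference that has the same direction in every library, so such alternatives could not fail. Of 56 alternative values of the 11 tested differences, these included, 53 kept their direction. The 3 others belong to the 5p arm of Mir29c against that of Mir29a, whose log2 ratio became -0.21 with exact alignments only and ran from -0.089 to 0.20 when each library was left out, so its direction is not set by these data. Without reads with a mismatching C at base 23, the NTA difference between miR-29a-3p and miR-29c-3p shrank to -1.88 percentage points in the same direction. With exact alignments only, the 5′-shifted share of miR-29a-3p fell to 9.32%. The most frequent mismatch inside the reads was A6C in the shifted form and C7A in the reference form. The part of each mismatch in this fall was not tested. Levels moved by more than 1 SD in 13 of 42 alternatives, 7 of them with reads in placed hairpins as the denominator, where miR-29a-3p had 1836 per 1000000 such reads. The most frequent lengths of the 3p strands did not change in any alternative tried, whereas that of miR-29a-5p, 23, 25 and 23 nt in replicates 1, 2 and 3, was 25 nt with exact alignments only. Whole-number counts were taken for reads of a single locus, but a shared count that divides evenly is also whole. Depth limits the miR-29b 5p strands, the 24-nt reads that separate the copies of miR-29b-3p, and the pieces outside the arms.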
